A study of Mus musculus with 12 samples.

Results

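The IL-1 family genes *Il1a*, *Il1b*, *Il1rn*, *Il18*, *Il18bp*, *Il1rap*, *Il1r1* and *Il1r2* were followed through an LPS response in mouse peritoneal cells, and were taken by name from the expression table. Of the 8 genes looked for, 7 were among the 12850 genes of the deposited expression table, and all 7 passed a filter on low values (at least 1 CPM, reads scaled to a common library size, in at least 2 libraries). *Il1r2*, the decoy receptor, was not in the deposited list and is not analysed here. The cells were thioglycollate-elicited PECs (peritoneal exudate cells), which gather in the peritoneal cavity after an irritant, were collected 3.5 days after the injection of 2 ml of 4% medium, and were put in culture. They came from C57BL/6 mice, either WT or homozygous for the S513A change of Regnase-1 (*Zc3h12a* S513A/S513A, here S513A), a germline knock-in made with CRISPR/Cas9 that all cells of the animal carry. Regnase-1 is an endoribonuclease that degrades cytokine mRNAs, and the study asked whether the loss of this phosphorylation site alters transcript levels. Polyadenylated RNA was sequenced from cells without LPS (0 hr) and after 4 or 8 hr of 100 ng/ml LPS, with 2 libraries in each of the 6 groups, 12 in all. Age and sex of the mice, and whether libraries of a group came from different mice, were not given in the sources used here, so that p-values measure the spread between these libraries only.

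IL-1α and IL-1β are potent inflammatory cytokines that act through 1 shared receptor, made of IL-1R1 and the accessory chain IL-1RAP, and signal through MyD88 and IRAK kinases. IL-1β and IL-18 are made as inactive precursors and are cut by caspase-1 in inflammasomes before they act. The family carries its own brakes: IL-1RN (the IL-1 receptor antagonist) occupies IL-1R1 without signaling, IL-1R2 binds IL-1 as a decoy, and IL-18BP binds free IL-18. Macrophages are a main source of these cytokines, and transcription of *Il1b* after TLR4 engagement is the classical priming step before the inflammasome acts.

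The promoters of the paired cytokine genes *Il1a* and *Il1b*, which rose most, and of *Il18bp*, which had another time course, are printed to show how their start sites differ in sequence. They come from RefSeq (build GRCm38.p6), 250 bases before to 50 after the start site, on the coding strand from 5′ to 3′, and a window was found for 8 of 8 genes (11 windows). Capitals mark matches on either strand to a TATA box (TATAAA), an AP-1 site (TGANTCA) or a C/EBP site (TTNCNNAA).
*Il1a*, chr2:129309923-129310222, minus strand: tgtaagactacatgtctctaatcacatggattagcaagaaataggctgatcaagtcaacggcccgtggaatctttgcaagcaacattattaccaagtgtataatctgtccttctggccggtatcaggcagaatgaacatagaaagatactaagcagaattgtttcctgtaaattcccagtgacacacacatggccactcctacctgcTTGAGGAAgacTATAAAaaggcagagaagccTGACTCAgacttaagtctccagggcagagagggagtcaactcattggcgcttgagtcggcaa
*Il1b*, chr2:129371090-129371389, minus strand: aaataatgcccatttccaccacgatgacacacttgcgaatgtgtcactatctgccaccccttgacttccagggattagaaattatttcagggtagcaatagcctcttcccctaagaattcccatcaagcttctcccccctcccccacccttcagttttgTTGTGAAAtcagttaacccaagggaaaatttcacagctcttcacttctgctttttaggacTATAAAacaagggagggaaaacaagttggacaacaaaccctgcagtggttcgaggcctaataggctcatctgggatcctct
*Il18bp*, chr7:102018183-102018482, minus strand: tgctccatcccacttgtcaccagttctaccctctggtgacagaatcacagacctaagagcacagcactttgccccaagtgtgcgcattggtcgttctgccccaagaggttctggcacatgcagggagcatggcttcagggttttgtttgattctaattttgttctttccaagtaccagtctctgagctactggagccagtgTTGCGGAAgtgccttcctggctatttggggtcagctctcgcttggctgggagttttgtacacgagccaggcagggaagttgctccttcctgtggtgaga
In *Il1a* the TATA letters began at position -32 from the start site, with the AP-1 letters TGACTCA at -12 and the C/EBP letters TTGAGGAA at -43. *Il1b* held the TATA letters at -31 and the C/EBP letters TTGTGAAA at -91. The *Il18bp* window held neither the TATA nor the AP-1 letters, and its C/EBP letters TTGCGGAA stood at -49. This window stops at 102018482, short of the 5′ end of *Il18bp* at 102018690 in the GRCm38 annotation. It therefore shows a start site inside the annotated gene, and no sequence at that 5′ end. Over 32851 RefSeq mouse promoter windows of the same length, 13.6% held the TATA letters, 7.81% the AP-1 letters and 40.7% the C/EBP letters on either strand, so that a C/EBP match in a window is common. The other motifs searched on both strands were an interferon response site (GAAANNGAA, in 8.56% of windows), a STAT site (TTCNNNGAA, 8.3%), a CRE core (TGACG, 20.8%) and the kappaB consensus (4.51%), and none of these matched in the 3 printed windows. In the unprinted windows, *Il1r2* held the STAT letters TTCAAGGAA at -111, the first window of *Il1r1* the CRE letters CGTCA at -23, *Il18* the TATA letters TTTATA on the other strand at -175 and an *Il1rn* window at 15. *Il1rap* held the interferon response letters GAAAAAGAA at 21, the upstream window of *Il1rn* the AP-1 letters TGAGTCA at -141, and the second window of *Il1r1* a kappaB match at -232. C/EBP letters stood at -154 and -133 in the first window of *Il1r1* and at -236 in its second. In the later, overlapping windows of *Il1rn* they stood at -81, 16 and 17, and at -161, -65 and -64. These are matches of letters, with no measurement of binding.

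By the GRCm38 annotation (GENCODE), *Il1a* (chr2:129299610-129309972) and *Il1b* (chr2:129364570-129371139) lie on the minus strand of chromosome 2 with 54597 bases between them, and *Il1rn* (chr2:24336853-24351494) lies far off on its plus strand. *Il18* is at chr9:50554827-50581840, *Il18bp* at chr7:102014885-102018690, *Il1rap* at chr16:26581704-26730117 and *Il1r1* at chr1:40225080-40317257. The antisense transcript *Il1bos* overlaps the *Il1b* locus, and reads were not separated by strand, so that reads of the pair cannot be told apart where they overlap. *Il1bos* had 0 to 3 reads per library at 0 hr, 16 to 31 at 4 hr and 6 to 8 at 8 hr, against at least 15846 reads of *Il1b* at 4 hr, and shared 0 exonic bases with it in the basic transcript set.

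Each library had 9525979 to 12439960 reads on the 12850 listed genes together. A floor of 3 reads corresponded to a log2 CPM of -2.04 to -1.30, which covers counting error only. All members lay above it in every library. Values are the deposited log2 CPM, tests are limma on those values over 11885 genes in 1 model of all 12 libraries, and adjusted p-values are two-sided and corrected by Benjamini-Hochberg over all genes tested. *Zc3h12a* itself was at a log2 CPM of 4.99 to 5.39 at 0 hr, 7.87 to 8.11 at 4 hr and 6.80 to 7.11 at 8 hr, and S513A differed from WT by -0.25, -0.08 and 0.21 (SE 0.12 each, lowest adjusted p = 0.43). The allele is a change of 1 codon, and the level of this transcript does not check the labels. The macrophage markers were all listed (8 of 8) and their CPM summed to 16750 to 27850 per library. *Lyz2*, at a log2 CPM of 13.14 to 14.35, made up most of this sum, and single markers moved in both directions. At 8 hr against 0 hr 3 of the 8 were called higher and 2 lower in WT, and 4 and 2 in S513A. Of all genes tested, 19.4% rose and 14.9% fell in WT, and 20.9% and 19.0% in S513A. Of the neutrophil list 3 of 10 genes were listed, without *Ly6g*, *S100a9*, *Cxcr2* and *Retnlg*, and their sum ran from 660.0 to 745.5 CPM at 0 hr, 445.0 to 689.0 at 4 hr and 362.4 to 575.1 at 8 hr. Most of that sum was *Mmp8*, which fell at 8 hr by 0.58 in WT and by 1.00 in S513A on the log2 scale. *S100a8* rose by 1.75 at 8 hr in WT. In S513A its log2 CPM was 5.76 and 5.67 at 0 hr and 4.99 and 6.39 at 8 hr, with no common direction. *Camp* had 0 to 4 reads at 0 hr and 15 to 36 later. It passed the filter on low values through LPS libraries alone, so that no call is given for it. The sum of the eosinophil list (1 of 4 listed) went from 15.2 to 18.3 CPM at 0 hr to 7.96 to 9.69 at 4 hr and 2.98 to 4.32 at 8 hr. That of the dendritic cell list (4 of 5) went from 2.37 to 3.23 to 5.58 to 7.54 and 8.28 to 10.4. Neither sum overlapped between times. In the dendritic cell list *Ccr7* reached a log2 CPM of 2.905 in its highest library, and *Flt3*, *Zbtb46* and *Cd209a* at most 0.81, 0.65 and -0.45. The B cell (4 of 5), T and NK cell (1 of 6) and mast cell (3 of 5) lists summed to at most 8.87 CPM in every library. The part of other cells in the results was not tested, and in bulk RNA fewer cells of a type and less RNA per cell cannot be told apart.

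The order of the members, compared per kilobase of merged exons, differed between the times. At 0 hr the antagonist *Il1rn* stood highest, with a mean log2 CPM per kb of 6.01 over the 4 libraries of both genotypes, followed by *Il1a* at 3.98. *Il18* (2.35), *Il1b* (2.16) and *Il18bp* (1.84) came next, and the ranges of these 3 genes overlapped. *Il1rap* (0.70) and *Il1r1* (-1.75) were lowest. At 4 hr *Il1b* led at 10.47, ahead of *Il1a* (9.04), *Il1rn* (7.79), *Il18* (5.42), *Il18bp* (2.63), *Il1rap* (1.75) and *Il1r1* (-1.29), and no neighbours in this order overlapped. At 8 hr *Il1b* (8.62) still led, *Il1rn* (7.65) and *Il1a* (7.63) overlapped, and *Il18* (4.95), *Il18bp* (3.74), *Il1rap* (0.94) and *Il1r1* (-1.34) followed without overlap.

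**Figure D1:**
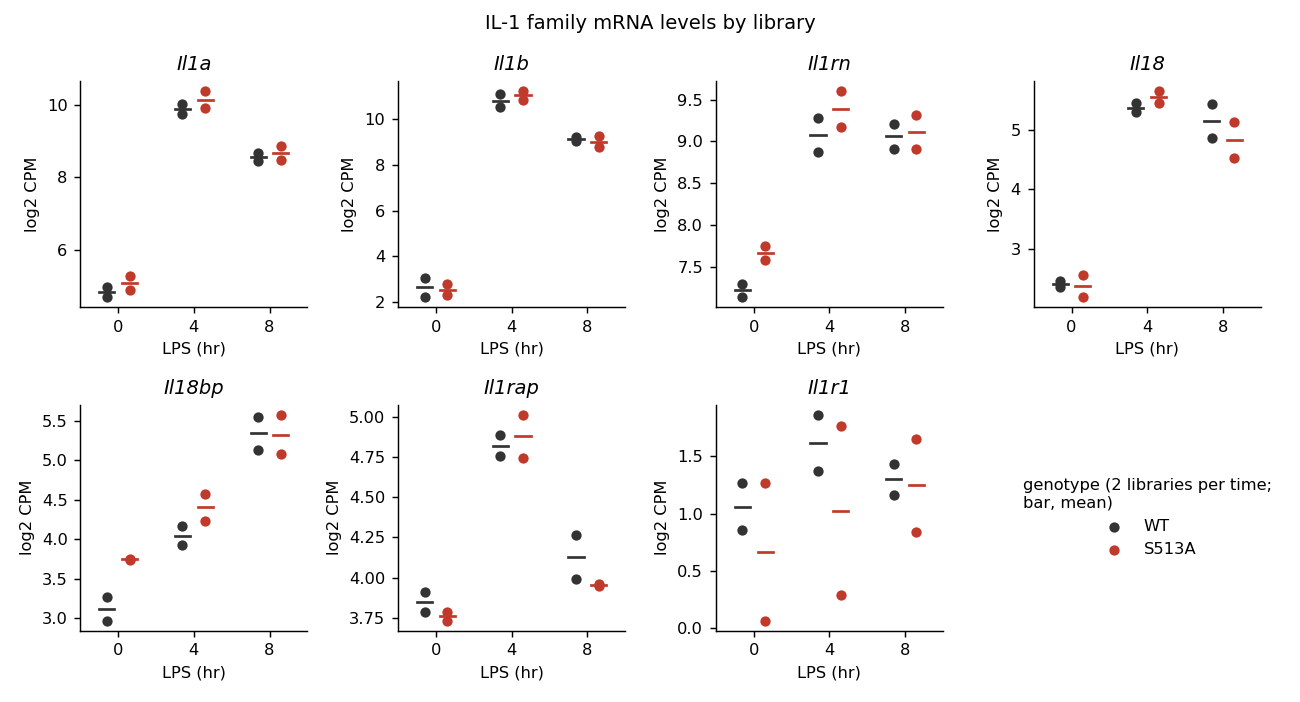
Log2 CPM of the 7 listed members in each library against hours of LPS, with WT in black, S513A in red, 2 libraries per point in time and a bar at their mean; each panel has its own vertical scale. *Il1a*, *Il1b* and *Il1rap* were highest at 4 hr, *Il1rn* and *Il18* overlapped between 4 and 8 hr over the genotypes, *Il18bp* was highest at 8 hr, and *Il1r1* stayed between 0.07 and 1.86.

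*Il1b* had the largest response of the members. Its log2 CPM at 0 hr was 3.06 and 2.24 in the WT libraries and 2.31 and 2.79 in the S513A libraries, from 56 to 119 reads. At 4 hr it was 11.08 and 10.51 in WT and 10.84 and 11.20 in S513A, and at 8 hr 9.02 and 9.21 in WT and 8.78 and 9.24 in S513A. The libraries of each time stood apart from those of the others, while the genotypes overlapped at each time. Against 0 hr, *Il1b* rose by a log2 fold change of 8.15 in WT (283-fold, 95% confidence interval 7.51 to 8.79, adjusted p = 8.3e-09) and 8.47 in S513A (354-fold, 7.83 to 9.11, adjusted p = 6.5e-09) at 4 hr. It was still higher by 6.46 in both genotypes at 8 hr, a fold of 88.2 in WT and 88.0 in S513A. From 4 to 8 hr it fell by 1.68 in WT (adjusted p = 0.0042) and by 2.01 in S513A (adjusted p = 0.0015) on the log2 scale.

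*Il1a*, whose product is active without cleavage by caspase-1, started higher and rose less. Its log2 CPM at 0 hr was 4.97 and 4.70 in WT and 4.90 and 5.27 in S513A. It reached 10.04 and 9.76 in WT and 9.90 and 10.38 in S513A at 4 hr, and stood at 8.45 and 8.66 in WT and 8.47 and 8.87 in S513A at 8 hr. As for *Il1b*, the 3 times were separate and the genotypes overlapped. The rise at 4 hr was 5.07 in WT (33.5-fold, adjusted p = 1.9e-08) and 5.05 in S513A (33.2-fold, adjusted p = 1.8e-08) on the log2 scale. At 8 hr the log2 fold change against 0 hr was 3.72 in WT and 3.58 in S513A, and from 4 to 8 hr the level fell by 1.35 (adjusted p = 0.0022) and by 1.47 (adjusted p = 0.0012). Within a library, the ratio of *Il1b* to *Il1a* per kb of exon went from 0.242 to 0.387 at 0 hr to 2.45 to 3.00 at 4 hr and 1.80 to 2.16 at 8 hr, so that *Il1a* was the more abundant of the 2 transcripts at 0 hr and *Il1b* at 4 and 8 hr.

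*Il18*, the other cytokine of the family that caspase-1 matures, rose at both times. Its log2 CPM was 2.36 and 2.46 in WT and 2.57 and 2.19 in S513A at 0 hr, with 54 to 73 reads per library. At 4 hr it was 5.45 and 5.30 in WT and 5.44 and 5.65 in S513A. At 8 hr its replicates stood further apart, at 4.86 and 5.44 in WT and 4.53 and 5.14 in S513A, which were all above the 0 hr libraries. The log2 fold change at 4 hr was 2.96 in WT (7.81-fold, SE 0.23, adjusted p = 2.8e-06) and 3.17 in S513A (8.98-fold, SE 0.23, adjusted p = 1.6e-06), and at 8 hr 2.74 and 2.45. Between 4 and 8 hr it did not pass the test, with -0.22 in WT (adjusted p = 0.56) and -0.71 in S513A (adjusted p = 0.058). In S513A the latter passed with voom weights (adjusted p = 0.044) and without the 8 hr library numbered 2 (-1.02, adjusted p = 0.019).

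*Il1rn* was already abundant without LPS and was higher at 4 and 8 hr. At 0 hr its log2 CPM was 7.14 and 7.30 in WT and 7.58 and 7.75 in S513A, 2023 to 2564 reads, with both S513A libraries above both WT libraries. At 4 hr it was 9.28 and 8.87 in WT and 9.17 and 9.60 in S513A, and at 8 hr 8.91 and 9.21 in WT and 8.91 and 9.31 in S513A. At the later times genotypes overlapped, and so did 4 and 8 hr within each genotype. The rise at 4 hr was 1.86 in WT (3.62-fold, adjusted p = 2.7e-05) and 1.72 in S513A (3.30-fold, adjusted p = 4.6e-05) on the log2 scale, and at 8 hr 1.84 (adjusted p = 3.6e-05) and 1.45 (adjusted p = 2.1e-04). From 4 to 8 hr the difference was -0.01 in WT (95% confidence interval -0.45 to 0.43) and -0.28 in S513A (-0.71 to 0.16), neither past the test.

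*Il18bp* was the member that went on rising. Its log2 CPM at 0 hr was 2.97 and 3.27 in WT and 3.75 and 3.74 in S513A, at 4 hr 4.16 and 3.93 in WT and 4.24 and 4.58 in S513A, and at 8 hr 5.14 and 5.55 in WT and 5.08 and 5.58 in S513A. S513A libraries were above the WT libraries at 0 and 4 hr and overlapped them at 8 hr. Such a split also occurred for *Il1rn* at 0 hr, and in the other direction for *Il1rap* at 0 and 8 hr. With 2 libraries per group a split is weak evidence, and its share over all genes was not counted. Against 0 hr it rose by 0.92 in WT (1.90-fold, adjusted p = 0.0046) and 0.66 in S513A (1.58-fold, adjusted p = 0.025) at 4 hr, and by 2.22 (4.66-fold, adjusted p = 1.3e-05) and 1.58 (2.99-fold, adjusted p = 1.5e-04) at 8 hr. From 4 to 8 hr it rose by a further 1.30 in WT (adjusted p = 0.0029) and 0.92 in S513A (adjusted p = 0.014). In S513A the call at 4 hr was lost without the 0 hr library numbered 1 (adjusted p = 0.096), the 0 hr library numbered 2 (adjusted p = 0.096) or the 4 hr library numbered 2 (0.49, adjusted p = 0.16), and with scaling by total reads (0.43, adjusted p = 0.077). The rise of *Il18bp* from 4 to 8 hr in S513A was lost with only the 4 libraries compared (adjusted p = 0.068), without the 4 hr library numbered 1 (adjusted p = 0.066) and without the 8 hr library numbered 2 (adjusted p = 0.059).

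Set against their ligands, both antagonists were lowest at 4 hr. The ratio of *Il1rn* to the sum of *Il1a* and *Il1b*, per kb of exon within a library, was 2.37 to 3.77 at 0 hr, 0.108 to 0.119 at 4 hr and 0.319 to 0.352 at 8 hr, with medians of 3.35, 0.115 and 0.343. The ratio of *Il18bp* to *Il18* was 0.522 to 0.997 at 0 hr, 0.132 to 0.162 at 4 hr and 0.368 to 0.499 at 8 hr, with medians of 0.686, 0.144 and 0.437. No libraries of different times overlapped in either ratio. Both *Il18bp* ratios of S513A were above both of WT at each time, at 0.775 and 0.997 against 0.522 and 0.598 at 0 hr, 0.148 and 0.162 against 0.140 and 0.132 at 4 hr, and 0.499 and 0.461 against 0.413 and 0.368 at 8 hr. The other ratios split by genotype too. That of *Il1rn* was higher in both S513A libraries at 4 and 8 hr and overlapped at 0 hr. That of *Il1b* to *Il1a* was lower in both S513A libraries at 0 and 8 hr and overlapped at 4 hr. How often such splits of 2 against 2 libraries arise among other genes was not counted. The ratios were chosen after the values were seen and are descriptions of mRNA, with no test and no measure of secreted protein.

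**Figure D2:**
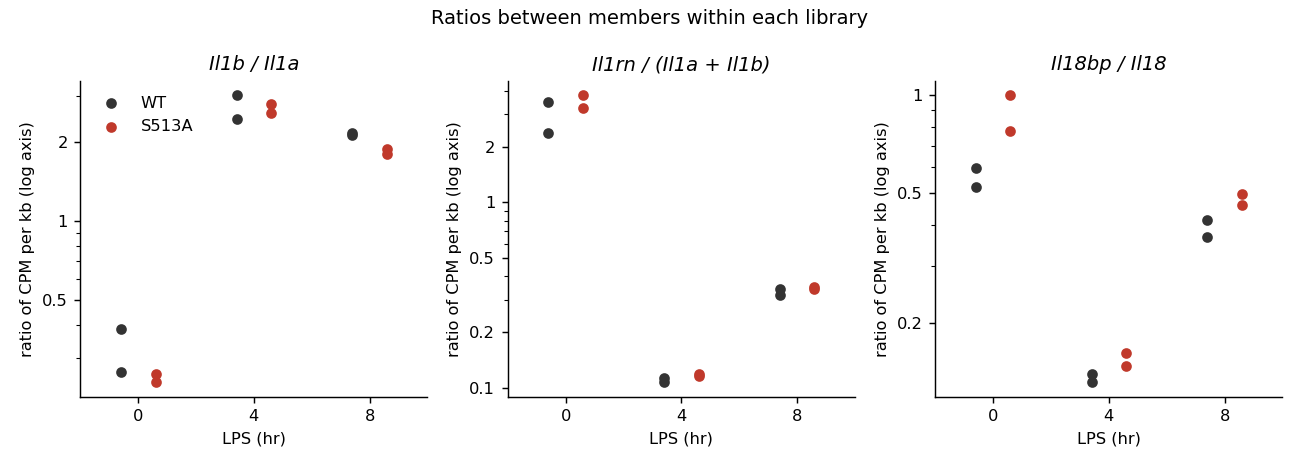
Ratios of CPM per kb between members within each library, on log axes, against hours of LPS, with WT in black and S513A in red. *Il1b* to *Il1a* had its median of 2.68 at 4 hr, where *Il1rn* to *Il1a* plus *Il1b* and *Il18bp* to *Il18* had their lowest medians of 0.115 and 0.144.

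*Il1rap*, the accessory chain of the IL-1 receptor and of related receptors, rose at 4 hr and had fallen again by 8 hr. Its log2 CPM was 3.91 and 3.79 in WT and 3.73 and 3.79 in S513A at 0 hr, 4.88 and 4.76 in WT and 4.75 and 5.01 in S513A at 4 hr, and 3.99 and 4.26 in WT and 3.96 and 3.95 in S513A at 8 hr. All 4 hr libraries lay above those of the other times. Both S513A libraries were below both WT libraries at 0 hr (narrowly, 3.7866 against 3.7877) and at 8 hr, and overlapped them at 4 hr. The log2 fold change at 4 hr was 0.97 in WT (1.96-fold, adjusted p = 2.4e-04) and 1.12 in S513A (2.17-fold, adjusted p = 8.3e-05). At 8 hr against 0 hr it was 0.28 in WT (95% confidence interval -0.03 to 0.59, adjusted p = 0.15) and 0.19 in S513A (-0.11 to 0.50, adjusted p = 0.29), which did not pass. From 4 to 8 hr it fell by 0.69 in WT (adjusted p = 0.0090) and by 0.92 in S513A (adjusted p = 0.0020). The fall of *Il1rap* in WT was lost with only the 4 libraries compared (adjusted p = 0.064) and without the WT 8 hr library numbered 1 (-0.56, adjusted p = 0.093). Counts per gene do not separate the membrane from the soluble form of this protein.

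*Il1r1*, the signaling receptor of IL-1α and IL-1β, had 10 to 39 reads per library and passed no test. Without LPS it had 34 and 23 reads in the WT libraries and 27 and 12 in those of S513A. After 4 hr it had 29 and 39 in WT and 34 and 10 in S513A, and after 8 hr 28 and 23 in WT and 36 and 16 in S513A. The 3 S513A libraries numbered 2 were the lowest of the 12. The same 3 libraries had the lowest sums of the mesothelial and fibroblast markers (7 of 8 listed), 18.6 to 20.2 CPM against 37.6 to 73.6 in the other 9. The collagen genes *Col1a1* and *Col1a2* were lowest in these libraries, at a log2 CPM of 2.58 to 2.86 and 2.04 to 2.74. So was *Pdgfra*, at 0.18, -0.02 and -0.51 at 0, 4 and 8 hr, against at least 1.57 in the other 9. The fibroblast marker *Dcn* was not low in these 3 libraries, at 1.65, 2.79 and 2.97 at 0, 4 and 8 hr, against at most 1.42, 2.53 and 2.98 in the others of each time. The mesothelial markers *Msln*, *Upk3b* and *Wt1* had at most 13 reads in any library, so that they added little to the sums. The part of such cells in the *Il1r1* level was not tested. The log2 fold change of *Il1r1* at 4 hr was 0.56 in WT (95% confidence interval -0.60 to 1.72, adjusted p = 0.43) and 0.36 in S513A (-0.80 to 1.51, adjusted p = 0.63), and at 8 hr 0.24 and 0.58. The SD between replicates was 0.19 to 0.34 in WT and 0.58 to 1.04 in S513A. The model used 1 spread per gene for all 6 groups, so that the WT intervals also carry the wider spread of S513A.

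**Figure D3:**
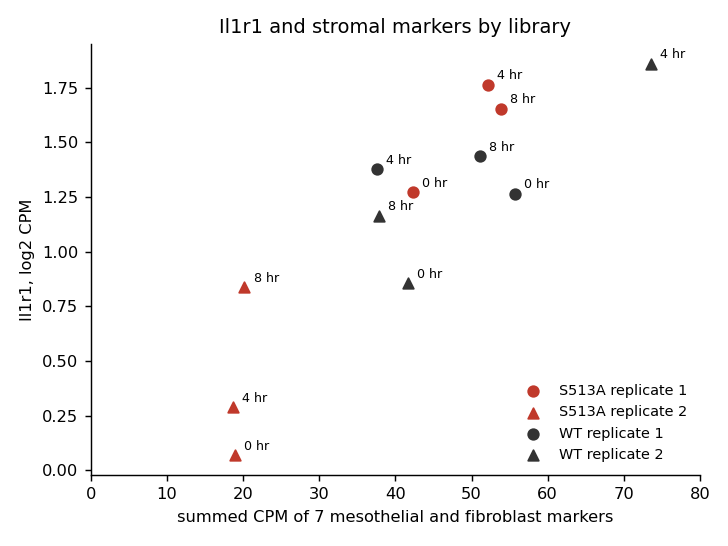
Log2 CPM of *Il1r1* against the summed CPM of 7 mesothelial and fibroblast markers in the 12 libraries, coloured by genotype, shaped by replicate number and labelled with hours of LPS. The 3 S513A libraries numbered 2 sit apart at 18.6 to 20.2 CPM and a log2 CPM of 0.07 to 0.84. In their sums *Col1a1*, *Col1a2* and *Pdgfra* were low and *Dcn* was not. The other 9 libraries lie at 37.6 to 73.6 CPM and 0.85 to 1.86.

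Counted together, 6 of 7 members rose at 4 hr in WT and 6 in S513A, and none fell. Of all genes tested, 22.6% rose and 18.7% fell at 4 hr in WT, and 23.1% rose and 20.2% fell in S513A. At 8 hr 5 members were higher than at 0 hr in each genotype and 0 lower, against 19.4% higher and 14.9% lower of all genes in WT and 20.9% higher and 19.0% lower in S513A. From 4 to 8 hr 3 members (*Il1a*, *Il1b* and *Il1rap*) fell and 1 (*Il18bp*) rose in each genotype, where 6.73% of all genes rose and 7.49% fell in WT and 9.31% rose and 8.99% fell in S513A. The median log2 fold change of the 7 members at 4 hr was 1.86 in WT and 1.72 in S513A, beside 0.04 and -0.0048 over all genes. At 8 hr it was 2.22 and 1.58 beside 0.03 and -0.01, and from 4 to 8 hr -0.32 and -0.71 beside 0.02 and -0.02. The comparisons of a genotype share libraries, and cytokine genes are well-known targets of LPS, so that the counts describe this response and are not independent of one another. Scaling by total reads moved every log2 fold change against 0 hr by -0.27 (WT) and -0.23 (S513A) at 4 hr and by -0.25 and -0.08 at 8 hr.

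**Figure D4:**
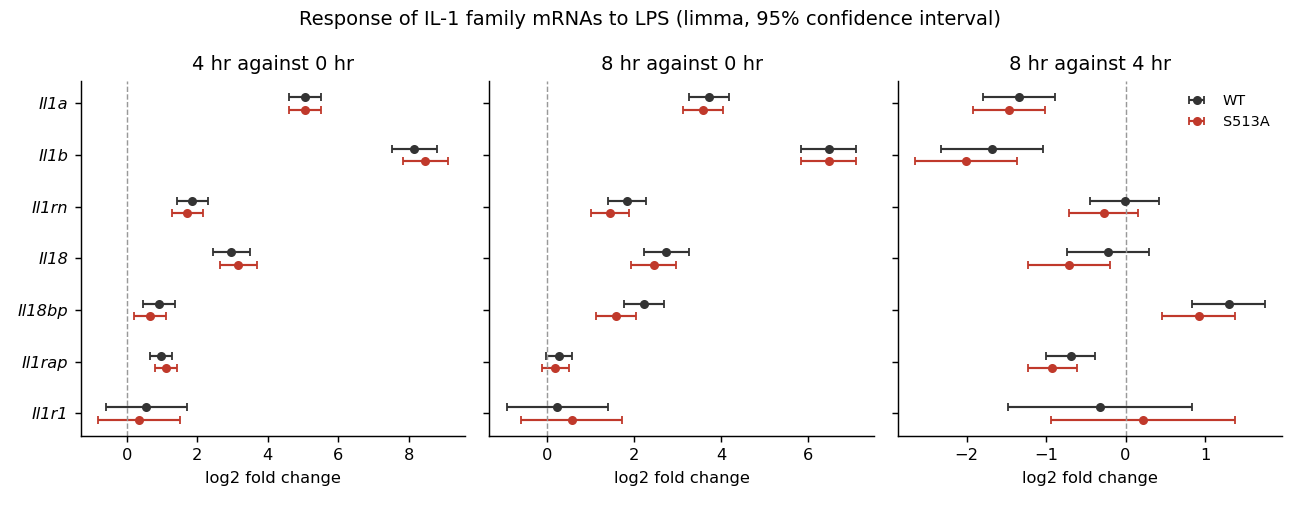
Log2 fold changes of the 7 members with 95% confidence intervals from limma for 4 against 0 hr, 8 against 0 hr and 8 against 4 hr, WT in black and S513A in red, 2 libraries per group. The dashed line marks no change; *Il1b* lies at 8.15 and 8.47 in the first panel, and *Il18bp* alone has its interval above 0 in the third.

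Between S513A and WT, no member passed the test at any time. The calls over all genes were 0.0337% at 0 hr, 0.0168% at 4 hr, 0.0337% at 8 hr and 0.0673% averaged over the times. *Il1b*, the member with the strongest response, differed by -0.10 at 0 hr (95% confidence interval -0.74 to 0.54), 0.22 at 4 hr (-0.42 to 0.86) and -0.10 at 8 hr (-0.74 to 0.54). *Il1a* differed by 0.25, 0.24 and 0.12, and *Il18* by -0.03, 0.17 and -0.31. For *Il1rap* the differences were -0.09, 0.06 and -0.17. At an unadjusted p under 0.05, 2 members were counted at 0 hr, *Il1rn* and *Il18bp*, and 0 at 4 and at 8 hr, beside 949, 833 and 1487 of the 11885 genes.

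The antagonists *Il18bp* and *Il1rn* gave the largest S513A values at 0 hr. *Il18bp* was at 3.75 in S513A and 3.12 in WT on the log2 scale, a difference of 0.63 (1.54-fold, 95% confidence interval 0.17 to 1.08, adjusted p = 0.59), and at 4 hr the difference was 0.36 (-0.10 to 0.82) and at 8 hr -0.02 (-0.47 to 0.44). *Il1rn* differed by 0.45 at 0 hr (1.36-fold, 0.01 to 0.88, adjusted p = 0.59), 0.31 at 4 hr and 0.05 at 8 hr. Averaged over the times, the differences were 0.32 for *Il18bp* (0.06 to 0.59, adjusted p = 0.67) and 0.27 for *Il1rn* (0.02 to 0.52, adjusted p = 0.72). With only the 4 libraries compared in the model, *Il1rn* passed at 0 hr (adjusted p = 0.044), where 693 genes passed in place of 4. *Il1r1* averaged -0.35 (-1.01 to 0.32), and 0.24 without the 3 S513A libraries numbered 2.

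**Figure D5:**
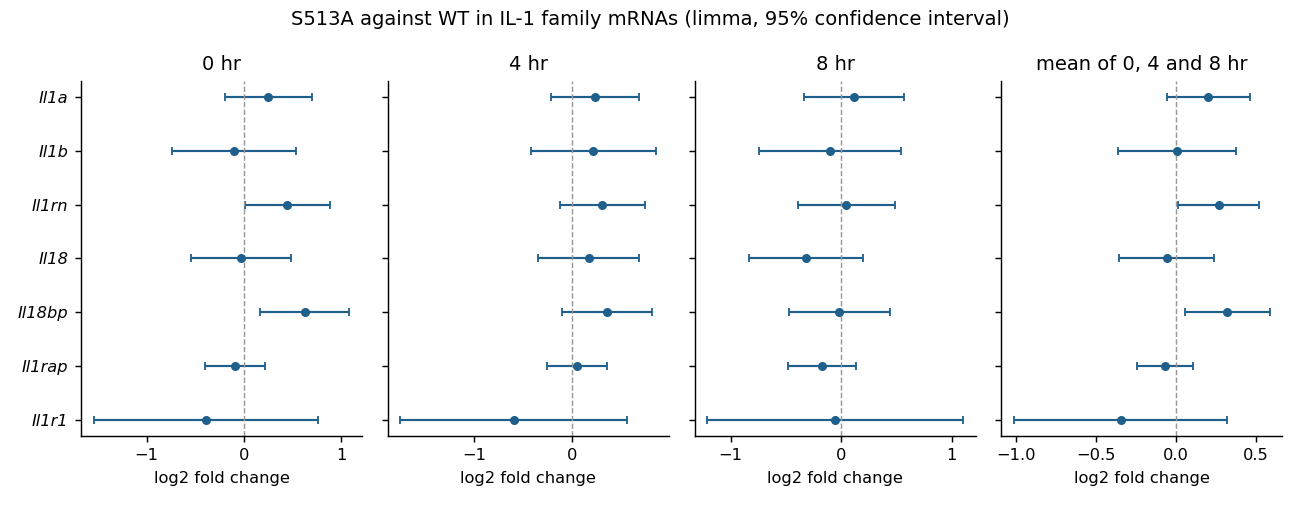
Log2 fold changes of S513A against WT in the 7 members with 95% confidence intervals from limma at 0, 4 and 8 hr and averaged over these times; horizontal scales differ between panels and the dashed line marks no difference. The intervals of *Il18bp* (0.17 to 1.08) and *Il1rn* (0.01 to 0.88) lie above 0 at 0 hr before correction, and no member passed the adjusted test.

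The LPS responses of S513A and WT were also compared by the interaction of genotype and LPS, which 0 of 7 members passed at 4 or 8 hr. Over all genes, limma called 0 genes (0%) at 4 hr and 0 (0%) at 8 hr, with 144 and 2405 genes at an unadjusted p under 0.05. The smallest adjusted p of a member was that of *Il18bp* at 8 hr, where its rise was less in S513A by 0.64 on the log2 scale (difference of -0.64, 95% confidence interval -1.29 to 0.01, adjusted p = 0.25). The interactions of *Il1b* were 0.32 (-0.58 to 1.23) at 4 hr and -0.0022 (-0.91 to 0.90) at 8 hr. The interactions of *Il1a* were -0.01 (-0.65 to 0.63) and -0.14 (-0.77 to 0.50).

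Of 13 other ligands and receptors of the family, 6 were listed and 3 were tested. *Il36g*, an IL-36 cytokine that acts through *Il1rl2* and *Il1rap*, had 51 and 39 reads in WT and 77 and 93 in S513A at 0 hr, and 200 to 292 at 4 hr. It rose by 2.72 in WT (adjusted p = 4.5e-07) and 1.88 in S513A (adjusted p = 7.3e-06) at 4 hr, and by 2.99 and 2.04 at 8 hr. S513A was above WT by 1.15 at 0 hr (SE 0.17, adjusted p = 0.092), 0.30 at 4 hr and 0.19 at 8 hr, and the interactions were -0.84 (SE 0.24, adjusted p = 1.00) and -0.96 (adjusted p = 0.19), none past the test. *Il36a*, another IL-36 cytokine, had 0 reads in each 0 hr library, 5 to 15 at 4 hr and 2 to 11 at 8 hr, and no fold is given. It passed the filter on low values through LPS libraries alone, and the 2 S513A libraries at 8 hr had 2 and 3 reads, at or under the floor of 3. The IL-36 receptor chain *Il1rl2* was called higher at 8 hr only, by 0.82 in WT (adjusted p = 0.0015) and 0.58 in S513A (adjusted p = 0.011). *Il18r1*, the ligand-binding chain of the IL-18 receptor, had 2 to 11 reads per library, *Il1rl1* (the IL-33 receptor) 3 to 11 and *Sigirr* (an inhibitory receptor of the family) 0 to 10, and these 3 genes were not tested.

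The 12 genes of IL-1 receptor signaling were all listed and tested. At 4 hr 6 rose and 0 fell in WT and 6 rose and 1 fell in S513A, and at 8 hr 5 rose and 1 fell in WT and 6 rose and 0 fell in S513A. Of all genes tested, 22.6% rose and 18.7% fell at 4 hr in WT and 23.1% and 20.2% in S513A, and at 8 hr 19.4% and 14.9% in WT and 20.9% and 19.0% in S513A. The median log2 fold change of the 12 genes was 0.31 in each genotype at 4 hr, and -0.03 in WT and 0.34 in S513A at 8 hr. *Peli1*, a ubiquitin ligase that acts with IRAK kinases, was at a log2 CPM of 4.75 to 4.94 at 0 hr, 7.82 to 8.07 at 4 hr and 6.03 to 6.40 at 8 hr, and rose by 3.11 in WT and 3.15 in S513A at 4 hr (adjusted p = 7.8e-09 and 6.5e-09). *Irak3*, which encodes the inhibitory kinase homologue IRAK-M, was at 5.53 to 5.72, 8.11 to 8.28 and 7.83 to 7.86, and rose by 2.65 and 2.45 at 4 hr.

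Of the 7 genes for maturation of IL-1β and IL-18, 4 rose and 1 fell at 4 hr in WT, 4 rose and 2 fell in S513A, and at 8 hr 4 rose and 0 fell in WT and 4 rose and 2 fell in S513A. The shares of all genes in these comparisons are those given for the signaling genes, from 19.4% to 23.1% higher and from 14.9% to 20.2% lower. The median log2 fold change of the 7 genes was 0.88 in WT and 0.91 in S513A at 4 hr, and 1.21 and 1.17 at 8 hr. *Nlrp3*, the sensor of the inflammasome, was at a log2 CPM of 4.46 to 4.73 at 0 hr, 8.57 to 9.02 at 4 hr and 7.27 to 7.94 at 8 hr. It rose by 4.18 in WT and 4.14 in S513A at 4 hr (adjusted p = 7.4e-09 and 6.5e-09). *Casp4*, the caspase that senses cytosolic LPS, rose by 2.31 in WT and 2.45 in S513A at 4 hr and stayed higher by 2.47 and 2.14 at 8 hr. *Casp1* was higher by 1.185 and 1.158 at 4 hr and by 2.07 and 1.40 at 8 hr. The genes called lower were *Nek7*, by 0.45 in WT and 0.50 in S513A at 4 hr and by 0.30 in S513A at 8 hr, and *Pycard* in S513A. *Pycard* was lower there by 0.89 at 4 hr and 1.43 at 8 hr, and its -0.77 in WT at 4 hr did not pass (adjusted p = 0.056). These lists were written with earlier results of these data known.

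The genes most like each member over the 12 libraries were named by Pearson's r of log2 CPM, a description in which all libraries share the LPS time course. For *Il1a* they were *Marcksl1*, *Cmpk2* and *Cxcl1* (r = 0.998, 0.998 and 0.997), and for *Il1b* *Lyn*, *Hcar2* and *Il12b* (0.998 each). *Il1a* and *Il1b* had r = 0.996 with each other. For *Il1rn* they were *Casp4*, *Rnf149* and *Cept1* (0.993, 0.993 and 0.992), and for *Il18* *Ccl2*, *Trex1* and *Ifit1bl1* (0.993, 0.991 and 0.991). *Il18bp* was most like *H2-T22*, *Bst2* and *St13* (0.986, 0.986 and 0.985), and its r was 0.61 with *Il1a* and 0.64 with *Il1b*. *Il1rap* was most like *Mad2l1*, *Gk* and *Ubxn2a* (0.977, 0.973 and 0.973), with r = 0.13 to *Il18bp*. *Il1r1* reached 0.931 with *Elmo3*, 0.890 with *Tnfrsf10b* and 0.890 with *Atg9a*, from few reads.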

How the data were processed

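RNA of thioglycollate-elicited PECs was sequenced in 12 libraries, 2 for each genotype (WT, S513A) and time of LPS (0, 4, 8 hr). Per the labels and the study's methods, the authors mapped reads to mm10 with HISAT2 as unstranded and counted them with featureCounts 1.6.3. The authors deposited log2 CPM values: log2 of the reads plus 0.5 over an effective library size. Whole reads were recovered from the step between low values (largest departure 0.00103 read, 100% of values). The filter behind the list of genes was not given in the sources used here, and 112 rows had no symbol.

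Values were tested with limma 3.58.1 (R 4.3.3) with 1 mean per group (6 groups), 6 residual degrees of freedom and a prior trend on mean level, in the 11885 genes with at least 1 CPM in 2 libraries. Adjusted p-values are Benjamini-Hochberg over these genes and the threshold was 0.05. Reads on listed genes, 9525979 to 12439960 per library, set the precision of low genes, and the SD of replicate differences in log2 CPM was 0.16 to 0.40 over the 8353 genes with a mean of at least 3. Levels between genes were compared per kb of merged exons of the GRCm38 annotation.

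Members and lists were chosen with earlier results of these data known. The genes named are every member, the 2 tested genes of each other list with the largest mean change at 4 hr, and the 3 genes most correlated with each member. *Il1rl2*, *Il18r1*, *Il1rl1*, *Sigirr*, *Casp1*, *Nek7*, *Pycard* and the individual marker genes of cell types were named after their values were seen. The alternatives were no filter, a filter at a mean of 5 CPM, a further pseudocount of 1 CPM, quantile and median-ratio normalization, replicate blocks, priors without trend or robust, only the libraries compared, voom weights and each library left out. Removal of the 3 S513A libraries numbered 2 and scaling by total reads were added after seeing the data. Tables and plots used Python 3.11.15, pandas 2.3.3 and matplotlib 3.10.9.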

Additional observations from a re-analysis of the deposited data

How the results depend on the processing

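No call of a member in either direction turned to the other under any alternative. Among results for single members, 12 LPS calls were lost and 2 LPS results and 1 genotype result newly passed, while 88 differences that were not called changed sign, of which 76 were between genotypes or interactions. The number of members called kept within 1.5 times its value except in 2 cases. With only the libraries compared, 1 member (*Il1rn*) passed for S513A against WT at 0 hr in place of 0, and with the 3 S513A libraries numbered 2 removed, 2 members passed from 4 to 8 hr in S513A in place of 4. In the latter, *Il18bp* rose by 0.48 (adjusted p = 0.24) at 4 hr and by 0.84 (adjusted p = 0.14) from 4 to 8 hr, *Il1rap* went to -0.78 (adjusted p = 0.11), and the fit holds 1 library in each S513A group, assumed to vary like the others. Leaving out each library in turn gave 5 to 6 members at 4 hr in S513A, 6 in WT, 5 at 8 hr in each genotype, 3 to 4 from 4 to 8 hr in each genotype, and 0 between genotypes.

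The labels do not say what a replicate number marks, and the correlations do not all pass 0.1. Deviations of same-numbered libraries from their group means had correlations of -0.36 to 0.76 within a genotype and -0.74 to 0.36 between genotypes at the same time. Between groups that differ in both genotype and time they ran from -0.75 to 0.40. The value of 0.76 was that of S513A at 4 and 8 hr. The S513A libraries numbered 2 were alike at all 3 times in their low mesothelial and fibroblast marker sums (18.6 to 20.2 CPM) and low *Il1r1*, a hint from the data and not from the design. With a replicate block, 6 members were called at 4 hr, 5 at 8 hr and 4 from 4 to 8 hr in each genotype, and 0 between genotypes, as without the block.

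Counts over all genes moved more. They ran from 554 to 2847 (1690 in the model reported) for 8 against 4 hr in WT, 206 to 3144 (2175) in S513A, 2826 to 5687 (5137) for 4 hr in S513A, 2489 to 5959 (4079) and 2994 to 5425 (4744) for 8 hr in WT and S513A, 0 to 693 (4), 0 to 2 (2) and 0 to 6 (4) for S513A against WT at 0, 4 and 8 hr, 3 to 12 (8) for its average, and 0 to 651 (0) for the interaction at 8 hr, the highest without the S513A 8 hr library numbered 2. The causes were not tested. With 2 libraries per group, the SE of a difference between 2 groups had a median of 0.18 (log2) over all genes, and it was 0.52 for *Il1r1*, with 10 to 39 reads.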
